A study of Mus musculus with 62 samples.

Results

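Complement components and receptors were followed here as 9 genes, namely C1qa, C1qb, C1qc, C4b, C3, C3ar1, C5ar1, Itgam and Serping1, out of 53975 gene identifiers in the deposited gene abundance tables. They were chosen by name, as the subunits of the recognition molecule C1q, the central components C4 and C3, the receptors for their fragments and the inhibitor of the first enzymes, and all 9 were found in the tables. Levels are TPM, a share of transcripts that accounts for their length, divided by 1 factor per library from the median of ratios and called scaled TPM. A change is a difference of mean log2(scaled TPM + 1), on which low genes move less than their TPM does.

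Complement is a cascade of blood and tissue proteins that tags surfaces for removal. In the classical pathway C1q binds a target, its partner proteases C1r and C1s cleave C4 and C2, and the resulting enzyme cleaves C3, whose fragments are read by receptors on phagocytes. In the brain C1q is made mainly by microglia and C4 largely by astrocytes and other glia, and complement is known for its part in synapse removal and for its presence around amyloid plaques.

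Long RNA was measured in 17 hippocampus libraries, 1 per mouse with both hemispheres pooled, and in 14 libraries of the mouse hippocampal cell line HT-22. The mice were of the App NL-G-F strain, a knock-in that carries a humanised and mutated amyloid sequence in the App gene of every cell that uses it (APP below), or C57BL/6J (WT below). APP groups held 3 mice at each of 3, 6 and 12 months, and WT groups held 2 mice at 3 months and 3 at each of 6 and 12 months. All HT-22 cells were first given an LNA, a stabilised oligonucleotide, for 24 h. It was directed at Hsf1 (150 nM) or had a scramble sequence (listed at 50 uM). Then 30 uM of a peptide in DMSO followed, amyloid beta 1-42 (Aβ42) or its reverse sequence. Scramble LNA was used in 4 libraries with Aβ42 and 4 with reverse peptide, and anti-Hsf1 LNA in 3 with either peptide.

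Some facts of the whole series touch the results. App itself did not pass the test between genotypes at any age (limma log2 change 0.41, adjusted p 0.739, at 12 months), and a knock-in need not change its level. The WT libraries of 6 and 12 months held the Y-linked transcript Ddx3y at 18.8 to 28.2 scaled TPM and almost no Xist, while the other 11 mouse libraries held Xist at 70.6 to 137 scaled TPM, so genotype and sex cannot be told apart at 6 and 12 months. APP replicate 2 at 6 months stood apart, with summed microglial markers of 227 scaled TPM against 117 and 122 in the other two of its group. The 8 choroid plexus markers, from a tissue next to the hippocampus, summed to 41.6 to 2478 scaled TPM across mice. In HT-22 cells the 8 neuronal markers summed to only 1.501 to 7.83 scaled TPM, against 1680 to 2640 in hippocampus, and Hsf1 did not pass the test in the libraries labelled anti-Hsf1 (limma log2 change -0.15, Benjamini-Hochberg adjusted p 0.959, with reverse peptide and -0.37, adjusted p 0.521, with Aβ42).

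The 3 C1q genes lie side by side on chromosome 4 of GRCm38, with C1qb at 136880129 to 136886187, C1qc at 136889804 to 136893065 and C1qa at 136895917 to 136898803, all on the minus strand. C3ar1 lies on chromosome 6 at 122847138 to 122856161 on the same strand. Promoter sequences of C1qb, C1qc and C3ar1 are shown because these genes rose in the same mice. Each is 300 bases long and spans the start of the gene as RefSeq gives it on GRCm38.p6, 5′ to 3′ on the strand of the gene, at chr4:136886151-136886450, chr4:136892865-136893164 and chr6:122856108-122856407. Capitals mark GAGGAA, the core bound by PU.1, a factor of myeloid cells, or its complement TTCCTC.
C1qb: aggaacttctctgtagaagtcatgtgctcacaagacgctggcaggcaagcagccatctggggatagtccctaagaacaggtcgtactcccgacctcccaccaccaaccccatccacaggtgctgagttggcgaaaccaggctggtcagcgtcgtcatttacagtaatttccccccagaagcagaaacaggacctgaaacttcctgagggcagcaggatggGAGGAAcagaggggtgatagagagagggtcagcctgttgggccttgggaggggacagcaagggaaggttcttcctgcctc
C1qc: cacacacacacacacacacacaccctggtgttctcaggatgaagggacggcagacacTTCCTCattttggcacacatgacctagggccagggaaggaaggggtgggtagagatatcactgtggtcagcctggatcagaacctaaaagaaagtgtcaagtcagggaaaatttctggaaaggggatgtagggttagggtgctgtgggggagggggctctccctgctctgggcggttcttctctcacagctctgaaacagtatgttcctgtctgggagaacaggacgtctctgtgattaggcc
C3ar1: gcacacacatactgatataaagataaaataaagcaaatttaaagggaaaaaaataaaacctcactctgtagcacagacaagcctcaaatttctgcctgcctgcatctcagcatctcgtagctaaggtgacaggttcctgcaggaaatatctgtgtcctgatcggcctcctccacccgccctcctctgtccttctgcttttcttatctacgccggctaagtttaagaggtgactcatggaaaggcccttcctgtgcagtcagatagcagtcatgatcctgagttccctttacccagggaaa
The C1qb promoter held 1 match, at -30 to -25 from the start, and that of C1qc held 1 on the other strand, at -193 to -188. C3ar1 held none. Promoters of 6 of the 9 genes were matched by symbol, and 3 of these 6 (C1qb, C1qc and Itgam) held GAGGAA on either strand, against 28.3% of all 32851 promoters of this length. The AP-1 motif TGANTCA was present in C3ar1 alone of the 6, against 7.81% of all promoters, and the C/EBP motif TTGCNNAA in C3 alone, against 10.8%. Of the other motifs searched on both strands, a loose NF-kB motif was in all of the 6 but C5ar1 (50.8% of all promoters). The letters TATAAA were in C3ar1, at -235 to -230 from the start, and in C3, at 14 to 19 after it (13.6%). The STAT motif TTCNNNGAA (8.3%) and the IRF motif of paired half-sites (3.44%) were in none of the 6. These matches describe letters in a window and no binding was measured.

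C1q, the recognition molecule that starts the classical pathway, was made at a moderate level in every mouse. C1qa encodes its A chain, and its level in APP mice at 12 months was 119.8, 69.1 and 83.1 scaled TPM, against 26.9, 26.8 and 24.8 in WT mice of that age. Every APP mouse lay above every WT mouse. At 3 months C1qa was 20.1, 21.4 and 17.04 scaled TPM in APP and 12.1 and 23.3 in WT, and the groups overlapped. At 6 months it was 17.7, 38.7 and 15.6 in APP and 29.5, 17.7 and 18.7 in WT, where the 38.7 belongs to replicate 2.

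C1qb, the B chain, followed the same course. At 12 months it was 99.4, 60.5 and 73.5 scaled TPM in APP and 33.7, 22.9 and 22.7 in WT, with no overlap. At 3 and 6 months its APP and WT libraries overlapped, between 16.4 and 41.5 scaled TPM over both ages, with APP replicate 2 at 6 months again the highest. C1qc, the C chain, was 78.5, 51.2 and 55.0 scaled TPM in APP at 12 months and 21.9, 19.9 and 18.9 in WT, and 9.27 to 33.8 at 3 and 6 months over both genotypes. The ratio of C1qc to C1qb overlapped in every comparison of groups (log2 differences from -0.13 to 0.12). C1qa per C1qb was 1.13 to 1.21 in the 3 APP mice at 12 months and 0.871 to 1.04 in the 6 younger APP mice, without overlap, but WT mice of all ages spanned 0.737 to 1.24.

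C4b encodes the C4 protein that C1s cleaves. It lies on chromosome 17 at 34728380 to 34743882, next to C4a, a near-identical copy at 34809092 to 34823464, so that reads may have been split between the pair. C4b was 4.64, 10.2 and 5.83 scaled TPM in APP mice at 3 months, 14.1, 38.0 and 14.04 at 6 months and 90.4, 65.8 and 84.8 at 12 months. Each APP age group lay wholly above the one before it. In WT mice C4b was 7.14 and 6.48 scaled TPM at 3 months, 9.94, 12.51 and 9.56 at 6 months and 20.6, 22.7 and 19.9 at 12 months, again with no overlap between ages, although the WT mice of 3 months differ from the older ones in sex. C4a held 0.0904 to 4.02 scaled TPM in APP at 12 months and at most 0.877 in the other mouse groups. With both copies summed, the C4 change at 12 months was a log2 of 1.90 in place of 1.87.

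C3, the component on which all pathways meet, was low and did not reach the mean TPM of 1 asked of tested genes in hippocampus. Its level was 2.11, 1.06 and 1.69 scaled TPM in APP at 12 months and 0.655, 0.938 and 0.940 in WT, so the lowest APP mouse lay just above the highest WT mouse. It was 0.251, 0.255 and 0.116 scaled TPM in APP at 3 months and 0.467, 0.450 and 0.385 at 6 months, and the 3 APP ages did not overlap. Mean read depth over C3 was 0.104 to 2.45 in the mouse libraries, which limits the precision of these levels.

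Among the receptors, C3ar1, which binds the C3a fragment, was 3.79, 3.30 and 3.17 scaled TPM in APP at 12 months and 0.887, 0.757 and 0.937 in WT. The next highest library of all mice was APP replicate 2 at 6 months, at 2.62 scaled TPM. C5ar1, which binds C5a, was 1.27, 1.07 and 0.871 scaled TPM in APP at 12 months and 0.449, 0.394 and 0.407 in WT, and like C3 it was below the filter. Itgam, the alpha chain of complement receptor 3 (CD11b), was 12.8, 11.1 and 12.51 scaled TPM in APP at 12 months. These 3 mice agreed closely, but WT mice of the same age were spread from 1.66 to 6.25 and APP mice at 6 months from 1.37 to 9.39 scaled TPM. Serping1 encodes the C1 inhibitor, which blocks C1r and C1s, and it was 4.00, 8.80 and 5.45 scaled TPM in APP at 12 months and 3.66, 6.75 and 4.15 in WT, with full overlap.

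**Figure D1:**
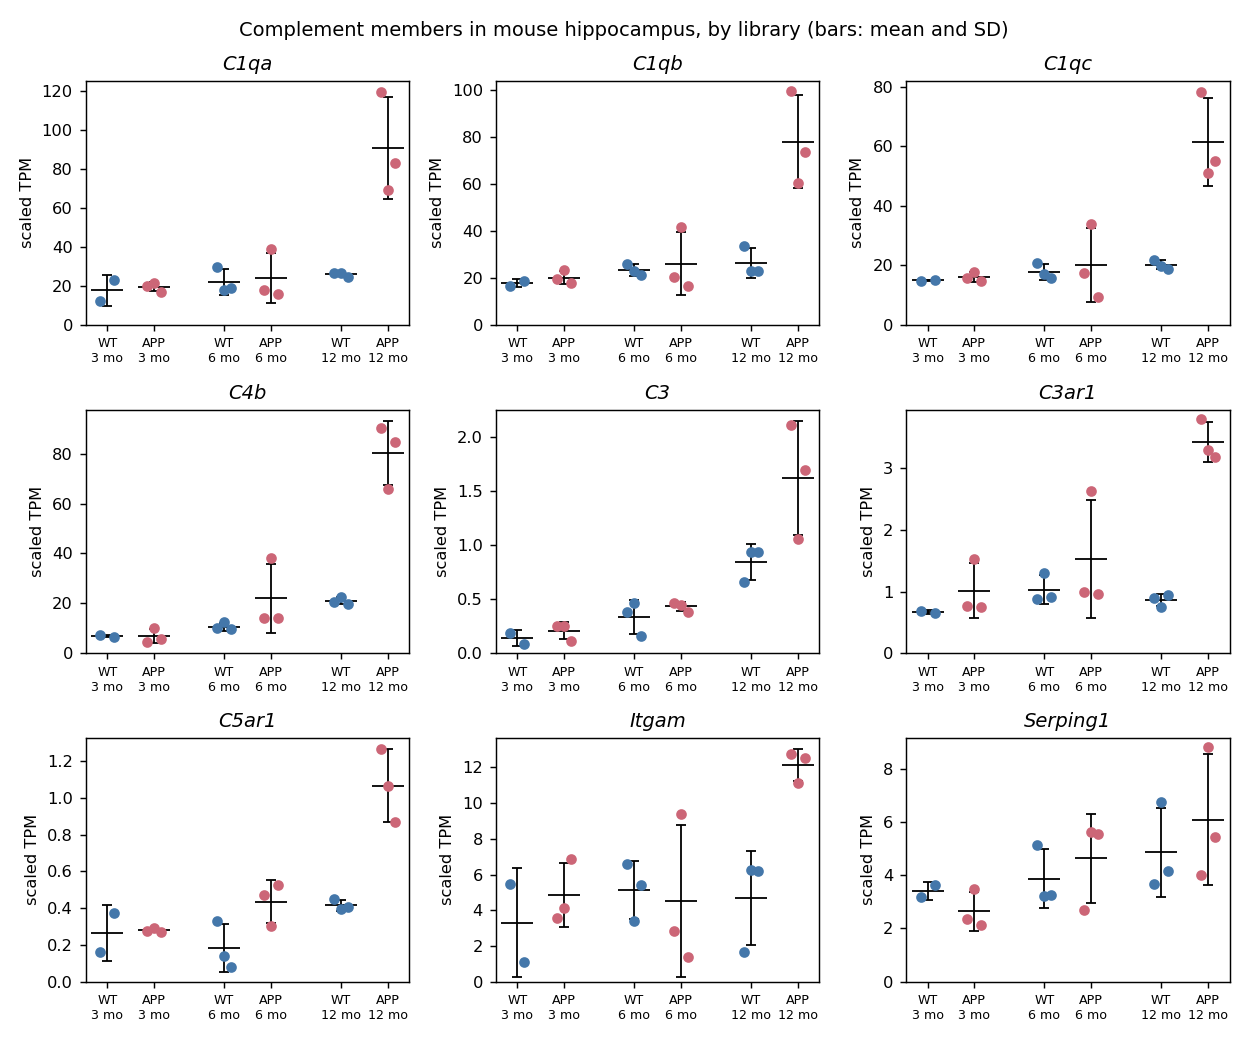
Scaled TPM of the 9 complement genes in each hippocampus library, by genotype (WT blue, APP red) and age in months, with the group mean and SD in black. The APP mice of 12 months lie above the WT mice of that age in every panel but Serping1, and C3 and C5ar1 stay near or below 2 scaled TPM.

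The order of the levels differed with age in APP mice. At 12 months C1qa (90.7 ± 26.2 scaled TPM, SD, n = 3), C4b (80.3 ± 12.9), C1qb (77.8 ± 19.8) and C1qc (61.5 ± 14.8) came first, with overlapping libraries. Itgam (12.1 ± 0.881), Serping1 (6.08 ± 2.47) and C3ar1 (3.42 ± 0.324) came next, each apart from its neighbour, and C3 (1.62 ± 0.528) and C5ar1 (1.07 ± 0.198) overlapped at the bottom. At 3 months C4b stood at 6.90 ± 2.94 scaled TPM (SD, n = 3), below all libraries of the C1q genes and overlapping with Itgam at 4.85 ± 1.77.

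Genotype at 12 months, the oldest age, was compared with limma on log2(scaled TPM + 1) over all tested genes, with a gene called where the Benjamini-Hochberg adjusted p was below 0.05. Of the 7 members tested, 5 rose in APP and 0 fell, where 0.42% of the 17840 tested genes were called higher. C4b rose by a log2 of 1.87 (SE 0.31, adjusted p 0.0122), C1qa by 1.72 (SE 0.31, adjusted p 0.0206), C1qc by 1.54 (SE 0.30, adjusted p 0.0329) and C1qb by 1.52 (SE 0.27, adjusted p 0.0185). The receptor C3ar1 rose by 1.25 (SE 0.23, adjusted p 0.0233). Itgam did not pass the test despite a log2 change of 1.34 (SE 0.52, adjusted p 0.536), nor did Serping1 at 0.25 (SE 0.29, adjusted p 0.961).

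All 3 APP mice lay above all 3 WT mice for 8 of the 9 members, and for 6 of the 7 tested, where 6.17% of all genes with any TPM and 8.67% of tested genes did so. The median change of the 7 members was 1.52, and that of all tested genes 0.00 (-0.0046). For C3 and C5ar1 the two-sided exact permutation test gave p = 0.1, the smallest that 3 against 3 mice allow, and limma without the filter gave adjusted p 0.403 for C3 (log2 change 0.49) and 0.128 for C5ar1 (0.54), with 0.284% of genes called higher. The calls at 12 months rested on few mice. Without APP replicate 1, APP replicate 3 or WT replicate 3 no member was called, without WT replicate 1 or 2 there was 1, and without APP replicate 2 there were 3. C1qc alone also lost its call without a library outside the comparison, namely APP replicate 1 or WT replicate 2 of 6 months or either WT mouse of 3 months. The log2 changes themselves stayed between 1.19 (C3ar1) and 2.01 (C4b) for the 5 called members when any of the 17 libraries was left out, and the highest adjusted p was 0.208, for C1qc.

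At 3 months 0 of 7 members were called, where 0.303% of tested genes were, and 0 had an unadjusted p below 0.05 in limma. The log2 changes ran from -0.29 for Serping1 to 0.62 for Itgam, and C4b stood at -0.04 (SE 0.34, adjusted p 0.98). At 6 months 0 of 7 were called, against 1.66% of tested genes, and 1 member, C4b, had an unadjusted p below 0.05, as did 17% of tested genes. Its 3 APP mice lay above the 3 WT mice, as for 11.1% of tested genes. The change of 0.84 on the log2 scale (SE 0.31) did not pass (limma adjusted p 0.176) and was 0.38 without APP replicate 2. The C1q genes changed by 0.00 to 0.05 at 6 months. With 1 library left out their changes ran from -0.44 to 0.44, both for C1qc, and 0 passed. On TPM as deposited, 6 members were called at 6 months, but there 58.0% of all tested genes were called and the median of all genes was 0.60.

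Age within APP mice is not mixed with sex, since all 9 libraries held Xist. These comparisons share the 12-month APP mice with the genotype comparison and are not independent of it. From 3 to 12 months 5 of 7 members rose in limma, where 1.92% of tested genes were called higher. C4b rose the most among them, by a log2 of 3.41 (SE 0.31, adjusted p 0.000245), which is 10.7-fold on that scale. C1qa rose by 2.13 (SE 0.31, adjusted p 0.00265), C1qb by 1.88 (SE 0.27, adjusted p 0.00239), C1qc by 1.85 (SE 0.30, adjusted p 0.0045) and C3ar1 by 1.15 (SE 0.23, adjusted p 0.0141). Itgam (1.20, adjusted p 0.251) and Serping1 (0.92, adjusted p 0.104) did not pass, although for all 9 members the 12-month mice lay above the 3-month mice, as they did for 8.4% of all genes with any TPM and 11.3% of tested genes.

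C3 and C5ar1 passed from 3 to 12 months in the limma fit without the filter, in which 0.818% of 35961 genes were called higher. The log2 change was 1.10 for C3 (SE 0.16, adjusted p 0.00433) and 0.69 for C5ar1 (SE 0.12, adjusted p 0.0168). The exact permutation p was 0.1 for each, the smallest that 3 against 3 allow. In the same comparison 5 of 8 oligodendrocyte markers were called lower (median log2 change -0.67) and 1 of 6 hippocampal markers, Fibcd1, higher (median 0.57), and 6 of 10 microglial markers were called higher (median 1.02). Their part in the change of the members was not tested. C4b and the 3 C1q genes kept their calls in all 17 fits with 1 library left out. C3ar1 lost its call without any 1 of the 3 APP mice of 12 months, with an adjusted p of at most 0.0669, and in fits of only the compared groups (adjusted p 0.0574) or only the libraries with Xist (0.0515).

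From 3 to 6 months in APP mice C4b was the 1 called member (log2 change 1.45, SE 0.31, limma adjusted p 0.0279), where 1.27% of tested genes were called higher, while the C1q genes changed by 0.14 to 0.26 and C3ar1 by 0.28, none past the test. The APP mice of 3 and 6 months also differed in markers of tissue makeup. From 3 to 6 months 7 of 8 oligodendrocyte markers were called lower (median log2 change -1.03), 2 of 6 hippocampal markers, Fibcd1 and Zbtb20, were called higher (median 0.78), and the choroid plexus markers had a median of -1.01 with 0 called. Hippocampal markers summed to 117 to 158 scaled TPM in the APP mice of 3 months and 176 to 246 in all other mice. Oligodendrocyte markers summed to 1530 to 2520 in the APP mice of 3 months and 1365 to 1462 in the WT mice of that age. In the APP mice of 6 months they summed to 854 to 1071. Choroid plexus sums overlapped, at 590 to 2478 in the APP mice of 3 months and 41.6 to 927 in those of 6 months. The part of these markers in the change of C4b was not tested. The C4b call was lost without APP replicate 2 at 6 months (log2 change 0.99, adjusted p 0.0777) and without APP replicate 1 at 3 months (1.24, adjusted p 0.0931). From 6 to 12 months C4b (1.96, adjusted p 0.0128), C1qa (1.95, adjusted p 0.0131), C1qc (1.72, adjusted p 0.0215) and C1qb (1.62, adjusted p 0.0181) rose, which is 4 of 7 against 0.516% of tested genes called higher. C3ar1 (0.87, adjusted p 0.126), Itgam (1.52, adjusted p 0.26) and Serping1 (0.33, adjusted p 0.738) did not pass. C3 passed in the fit without the filter (0.85, adjusted p 0.0471), where 0.192% of genes were called higher, and C5ar1 did not (0.53, adjusted p 0.138). The 4 calls became 0 without APP replicate 1 or 3 at 6 months or APP replicate 1 at 12 months, and 1 without APP replicate 3 at 12 months.

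In WT mice 0 of 7 members were called in limma between 6 and 12 months, as were 0.0% of tested genes. C4b was the 1 member with an unadjusted p below 0.05 in limma, as had 6.83% of tested genes. It was higher at 12 months by 0.93 on the log2 scale (SE 0.31, adjusted p 0.643) with no overlap between the ages, as for 6.05% of tested genes. C3 (log2 change 0.47) and C5ar1 (0.26) also had higher means at 12 months, each with an exact permutation p of 0.1, the smallest possible. In limma without the filter neither passed (adjusted p 0.687 for C3 and 0.84 for C5ar1). The C1q genes changed by 0.15 to 0.28 with overlap, and C3ar1 by -0.12.

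Whether the genotype difference itself grew from 6 to 12 months was tested as an interaction, in which a constant difference between the mice of each genotype cancels. It was positive for all 7 members, from 0.07 for Serping1 to 1.73 for Itgam, and 0 passed in limma, where 0.0224% of tested genes did. The estimates were 1.67 for C1qa (SE 0.44, adjusted p 0.206), 1.53 for C1qc (SE 0.42, adjusted p 0.239) and 1.47 for C1qb (SE 0.38, adjusted p 0.202), and 6 of 7 members had an unadjusted p below 0.05, as did 10.2% of tested genes. Without APP replicate 2 at 6 months C1qa, C1qb and C1qc were called (adjusted p 0.0274, 0.00876 and 0.00783). For C4b the interaction was 1.03 (SE 0.43, adjusted p 0.439).

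**Figure D2:**
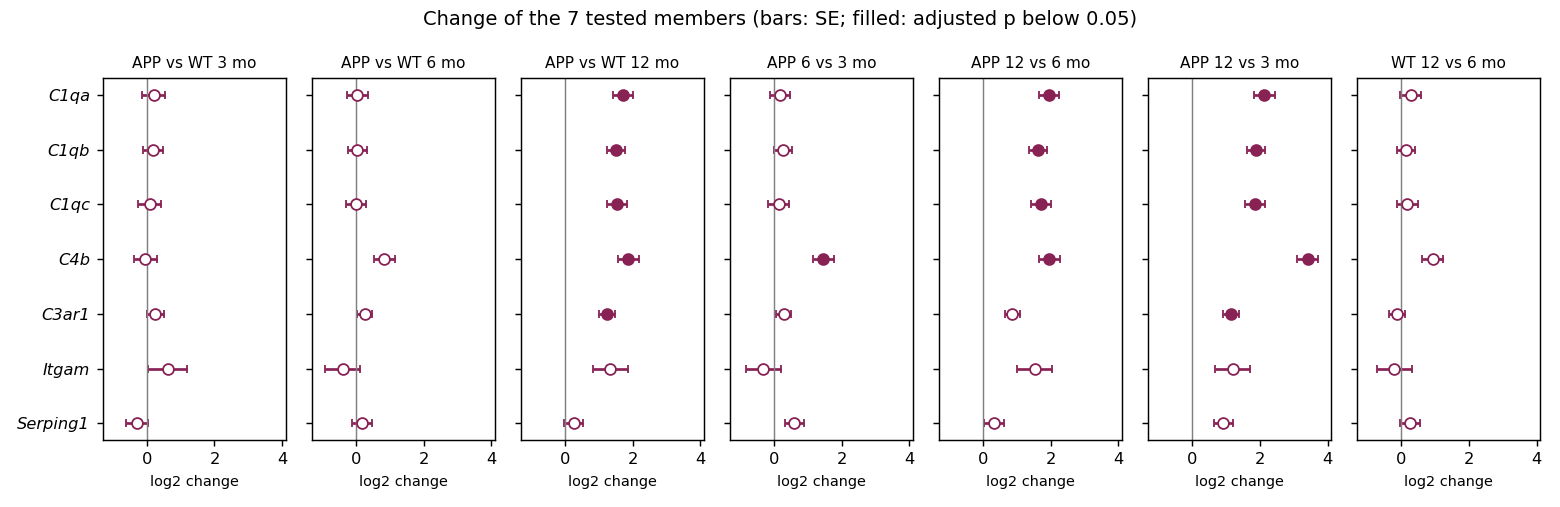
Log2 change of the 7 tested members in each comparison of mouse groups, with bars for the SE, filled points for an adjusted p below 0.05 in limma and open points otherwise. C4b is the only filled point from 3 to 6 months in APP mice, and the C1q genes are filled in the 3 comparisons that hold the APP mice of 12 months.

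The ratio of C4b to C1q within a library does not depend on scaling. C4b per C1q, the geometric mean of its 3 chains, was 0.255, 0.494 and 0.355 in APP mice at 3 months, 0.766, 1.01 and 1.05 at 6 months and 0.925, 1.10 and 1.22 at 12 months. Hence in APP mice the ratio lay higher at 6 than at 3 months without overlap, and the 6- and 12-month mice overlapped. In WT mice it was 0.498 and 0.345 at 3 months, 0.396, 0.658 and 0.521 at 6 months and 0.764, 0.986 and 0.907 at 12 months. At 6 months the APP mice lay above all WT mice (log2 difference 0.86), and at 12 months the genotypes overlapped (0.29). APP replicate 2 at 6 months, which was high for each gene, was at 1.01 and thus between the other two mice of its group. No test was run on these ratios.

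In bulk tissue fewer cells of a type and less RNA per cell cannot be told apart. The 10 microglial markers moved with the C1q genes: their sum was 282 to 325 scaled TPM in APP at 12 months and 131 to 155 in WT, 9 of 10 were above 0 in the comparison, with a median log2 change of 1.01, and Cd68, Csf1r and Tyrobp were among the 4 called. C1q per microglial markers was 4.30, 2.91 and 3.54 in APP mice at 12 months and 2.28, 2.13 and 2.01 in WT (log2 difference 0.73), and 1.40 to 2.18 in all mice of 3 and 6 months. C4b per microglial markers was 3.98, 3.20 and 4.31 in APP at 12 months against 1.74, 2.097 and 1.83 in WT. So both ratios were higher in the old APP mice than in all others. The markers enter as log2(scaled TPM + 1) and C1q and C4b as log2(scaled TPM). An equal fold rise of all these genes would thus raise the ratios, and how much of the difference this makes was not tested. The 7 astrocyte markers summed to 1034 to 1169 scaled TPM in APP at 12 months and 654 to 675 in WT, with only Gfap called and a median log2 change of 0.16, and C4b per astrocyte markers was 0.679 to 0.911 against 0.277 to 0.304.

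Other cell types were followed in the same way between genotypes at 12 months. The 6 markers of neutrophils and monocytes summed to at most 1.52 scaled TPM and the 5 of lymphocytes to at most 0.294 in any mouse, with S100a9, Ly6g, Camp and Ngp at 0 in all WT and APP mice of 12 months. The 6 markers of perivascular and other macrophages summed to 2.09 to 7.16 scaled TPM in APP at 12 months and 1.96 to 4.46 in WT. Choroid plexus markers summed to 1460 to 1690 scaled TPM in the APP mice of 12 months and 431 to 1327 in WT, and 8 of 8 had a log2 change above 0 (median 0.96) with 0 called. The 7 endothelial and mural markers summed to 40.0 to 47.6 scaled TPM in APP at 12 months and 23.5 to 30.2 in WT, with 6 of 6 tested above 0 (median 0.51) and 0 called. The part of these cell types in the change of the members was not tested.

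**Figure D3:**
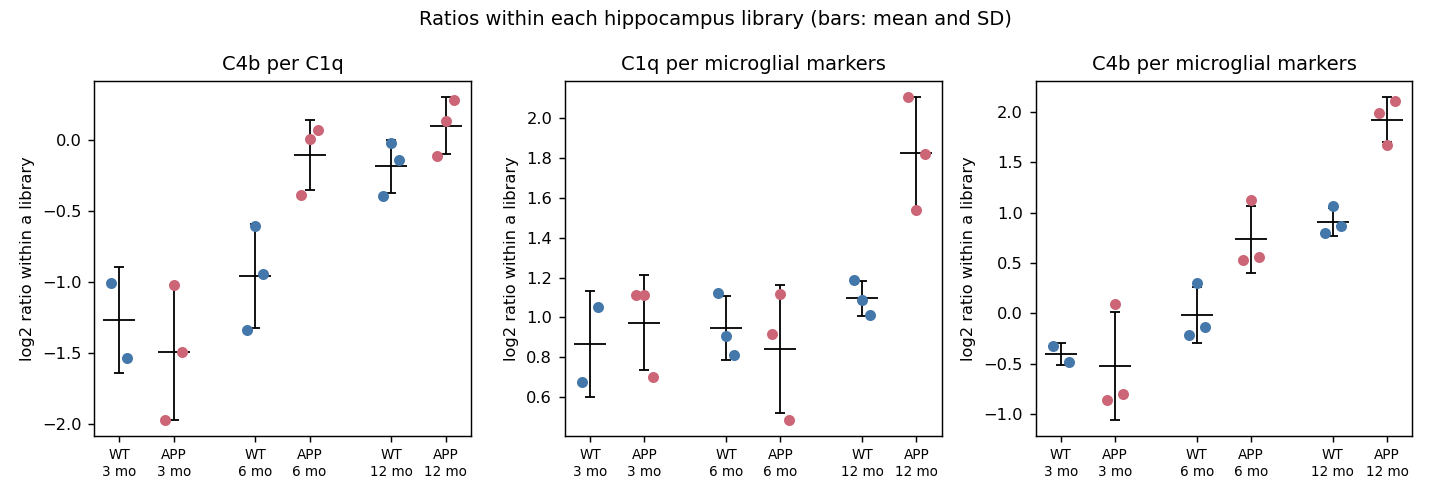
Log2 ratios within each hippocampus library for C4b per C1q, C1q per microglial markers and C4b per microglial markers, with group means and SD in black. C4b per C1q is already higher in APP mice at 6 months, while C1q per microglial markers stands out only in the APP mice of 12 months.

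The members differed in the genes whose course over the 17 mice was most like theirs, by Pearson's r of log2(scaled TPM + 1) over 17840 genes, given as a description of libraries that share groups. C1qb was closest to C1qc (0.98), to Ctss (0.978), a lysosomal protease of microglia, and to C1qa (0.973). C1qa was closest to C1qb (0.973), AU020206 (0.972) and Ctss (0.965), and C1qc to C1qb (0.98), Ctss (0.968) and C1qa (0.964). C3ar1 was closest to Clec7a (0.968), Mpeg1 (0.966) and Cst7 (0.966), which are known as genes of activated microglia and macrophages. The closest genes of C4b were Laptm5 (0.965), Msn (0.958) and Lyz2 (0.953), and r between C4b and the C1q genes was 0.889 to 0.918. Itgam (Gm24888, 0.837, Nrde2, 0.818, and S100a6, 0.808) and Serping1 (Efemp1, 0.867, Aldh1a2, 0.85, and Hmgn5, 0.846) had no gene as close. Between Serping1 and the C1q genes r was 0.46 to 0.539.

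The other 48 complement genes followed were those of the pathways, regulators and receptors, of which 21 were tested in hippocampus. Itgax, the alpha chain of complement receptor 4 (CD11c), was 8.86, 6.94 and 7.31 scaled TPM in the APP mice of 12 months and at most 0.307 in the WT mice of that age. APP replicate 2 at 6 months held 4.77 scaled TPM and the other two of its group at most 0.0557. Itgax reached the filter only through the APP mice of 12 months, with a mean deposited TPM of 1.73 over all mice and 0.433 without them, so its test comes from the fit without a filter. There the log2 change was 2.96 against WT at 12 months (SE 0.47, limma adjusted p 0.0151), 3.01 from 3 to 12 months in APP mice (adjusted p 0.00669) and 2.25 from 6 to 12 months, which did not pass (adjusted p 0.0831). No other of the 21 genes, nor any of the 7 tested members, needed these mice to reach the filter, and no other of the 21 was called at 12 months. Itgb2, the beta chain shared by complement receptors 3 and 4, rose from 3 to 12 months in APP mice (1.39, SE 0.28, adjusted p 0.0155) and did not pass against WT at 12 months (1.12, adjusted p 0.14), although its APP libraries lay above those of WT. At 3 and 6 months 0 of 21 were called between genotypes, with 2 at an unadjusted p below 0.05 at each age, where 13.4% (3 months) and 17% (6 months) of all tested genes had one.

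The median log2 change of the 21 genes at 12 months was 0.02, against 1.52 for the 7 members. Clu, a fluid-phase inhibitor of the terminal complex, changed by 0.43 on the log2 scale and did not pass the test (limma adjusted p 0.486). Clu was at the same time the most abundant complement gene followed in hippocampus, at 294 to 546 scaled TPM. The C1q partner proteases were barely present there, with C1ra at 0.0979 to 0.838 and C1s1 at 0 to 0.966 scaled TPM. C8a, C9, Mbl1, Mbl2 and Cfi, which serve the terminal and lectin pathways and C3b breakdown, were listed at 0 in all 17 libraries.

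**Figure D4:**
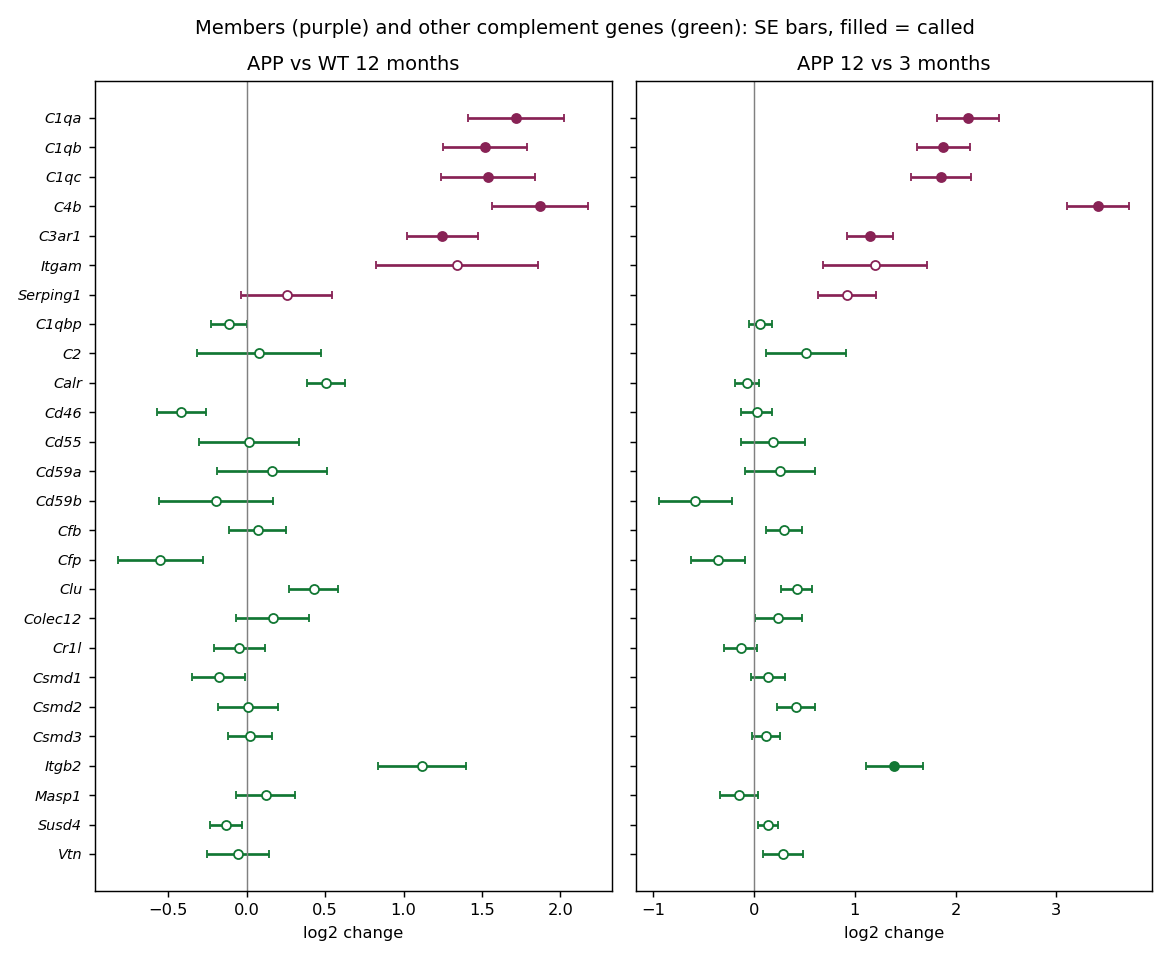
Log2 change with SE of the 7 tested members (purple) and of other tested complement genes (green), for APP against WT at 12 months and for APP at 12 against 3 months, filled where called in limma. Itgb2 on the right is the one filled green point, and Itgax is left out because it reached the filter only through the APP mice of 12 months.

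HT-22 cells held proteases of the classical pathway but no C1q. C1qa, C1qb, C1qc, C5ar1 and Itgam were listed at 0 in all 14 libraries, Serping1 in 13 and C4b in 7, with C4b reaching at most 0.891 and C3ar1 0.213 to 0.865 scaled TPM. By contrast the proteases that hippocampus nearly lacked were present, C1ra at 24.7 to 35.1 and C1s1 at 30.8 to 62.9 scaled TPM. Also present were Masp1 (12.9 to 31.1), a protease of the lectin pathway, Cfb (2.72 to 7.24) and Cfp (3.69 to 12.7) of the alternative pathway, and Hc, which encodes C5 (2.60 to 5.50). Of the pair of C4 copies it was C4a that carried reads, at 1.08 to 8.32 scaled TPM, and its split from C4b is uncertain here too. The levels of both systems were scaled apart and are set side by side only. In these cells the 10 microglial markers summed to 38.1 to 84.1 scaled TPM, with P2ry12, Tyrobp and Sall1 at 0 in every group and others present. With scramble LNA the sums were 83.1 and 84.1 in Aβ42 replicates 3 and 4 and 82.2 in reverse peptide replicate 4. All other libraries held at most 47.2. The 6 macrophage markers summed to 8.82 to 15.9 scaled TPM, with Mrc1, Cd163, Lyve1 and Ms4a7 at 0 in every library. Pf4 was also at 0 outside the group with reverse peptide and anti-Hsf1 LNA. In the other groups the sum was thus Cbr2 alone, and it is no sign of macrophages. The collagen-rich list of meningeal fibroblast markers summed to 1870 to 3650 scaled TPM. The libraries highest in microglial markers were also highest in this list, at 3650, 3542 and 3340 scaled TPM against at most 2370 in the others.

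C3 was the 1 member tested in HT-22 cells. It was 3.40, 3.36, 3.27 and 3.61 scaled TPM with Aβ42 and scramble LNA, and 3.05, 2.64, 2.66 and 2.25 with reverse peptide and scramble LNA, so every Aβ42 library lay above every reverse library. That separation held for 0.943% of tested genes. The log2 change was 0.28 (SE 0.16) and did not pass in limma (adjusted p 0.952), in a comparison where 0 of 17291 genes were called. With anti-Hsf1 LNA C3 was 3.74, 4.63 and 3.86 scaled TPM under Aβ42 and 2.88, 4.28 and 3.53 under reverse peptide, with overlap (log2 change 0.16, adjusted p 1.0). Libraries labelled anti-Hsf1 were higher than scramble by 0.20 with Aβ42 (adjusted p 0.664), without overlap as for 4.35% of tested genes, and by 0.32 with reverse peptide (adjusted p 0.959), with overlap. On TPM as deposited C3 pointed the other way in both comparisons that hold the libraries with Aβ42 and anti-Hsf1 LNA, with a log2 change of -0.36 against scramble (adjusted p 0.165) and -0.29 against reverse peptide (adjusted p 0.302), so the sign depends on the scaling. Scaling factors were 0.639 to 0.855 in these libraries and 1.12 to 1.23 with Aβ42 and scramble LNA. No member had an unadjusted p below 0.05 in any of the 4 comparisons, in which 0.0%, 0.0%, 0.0% and 0.0231% of tested genes were called. Of the 17 other complement genes tested 0 were called, and 1, C1s1, had an unadjusted p below 0.05, as did 8.99% of all tested genes in that comparison (0.48 with anti-Hsf1 LNA under Aβ42, adjusted p 0.529).

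C4b, C3ar1 and Serping1 lay below the filter in HT-22 cells and were put to an exact permutation test, two-sided, whose smallest possible p is 0.1 for 3 against 3 libraries and 0.0286 for the other sizes. Over the 4 comparisons p was 0.4 to 0.886 for C4b and 0.486 to 0.943 for C3ar1, with log2 changes from -0.22 to 0.12. Serping1 was at 0 in 13 of 14 libraries, so the outcome of its test was fixed in advance and no p is given. Members at 0 in every library gave no comparison.

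**Figure D5:**
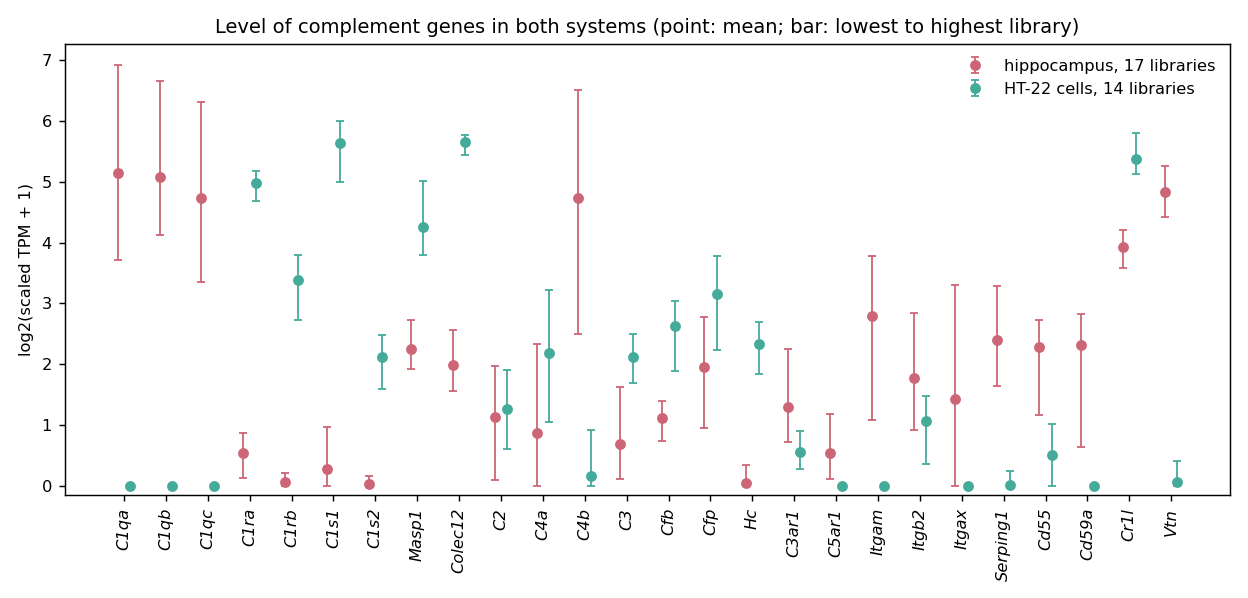
Level of complement genes as log2(scaled TPM + 1) in 17 hippocampus libraries (red) and 14 HT-22 libraries (green), with the mean as a point and a bar from the lowest to the highest library. C1q genes and Itgam are seen in hippocampus and at 0 in HT-22 cells, while C1ra and C1s1 are below 1 scaled TPM in every hippocampus library and at 24.7 or more in every HT-22 library.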

How the data were processed

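RNA from hippocampi and from HT-22 cells was split by the authors into short and long fractions, and only the 31 long-RNA libraries of the 62 samples were used. For every gene the deposited tables have the columns Coverage, FPKM and TPM, per the file headers. The deposited TPM values sum to 999823 to 999917 per library. The deposited coverage signal is the mean read depth over a gene. Deposited FPKM was used only as the divisor of Coverage, which gave relative depths of 1.42 to 3.04 (mouse) and 0.724 to 2.60 (HT-22). Read counts are not given. The submitters' processing notes name cutadapt 1.18, HISAT2 2.1.0, StringTie 1.3.4d, BWA 0.7.17, bedtools 2.26.0 and FastQC, with no roles, and mm10 or GRCm38.

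TPM was summed per gene identifier and divided by median of ratios factors (0.688 to 1.46 in mouse, 0.639 to 1.23 in HT-22). Genes whose TPM averaged 1 or more were tested with limma 3.58.1 (R 4.3.3, trend and robust empirical Bayes) on log2(scaled TPM + 1), in 1 fit of the 17 mouse libraries (17840 genes) and 1 of the 14 HT-22 libraries (17291 genes), each with group means only. Benjamini-Hochberg adjustment ran over all tested genes at 0.05. Single genes below the filter were compared by exact permutation in Python 3.11.15. The code was tested on simulated data. Ratios to markers used the mean of log2(scaled TPM + 1) over the markers and log2(scaled TPM), with nothing added, for C1q and C4b.

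The 9 members, the lists and the tests were chosen with earlier results of these data known. Named were all 9 members, C4a, listed complement genes past the threshold and the 3 most correlated genes per member; other complement genes are named after their values were seen. Alternatives were TPM as deposited, quantile normalisation, a pseudocount of 0.1, no filter, only the compared groups, array weights, a replicate block and each library left out. Only the libraries with Xist, C4a and C4b summed, and leaving out libraries from C4b per C1q were added after seeing the data. Labels do not state separate cultures for the HT-22 libraries, so their p-values measure the spread between these libraries, which may be technical. Short-RNA libraries were not analysed here. Values of some listed genes are not reported here.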

Additional observations from a re-analysis of the deposited data

Results flagged for a closer look

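In HT-22 cells with reverse peptide and scramble LNA, C4b was 0.891 scaled TPM in replicate 4, far from the other 3 libraries of that group, which held at most 0.0677 scaled TPM. Serping1 was 0.186 scaled TPM in replicate 1 of the same group and 0 in the other 3. The gap of the C4b value to the nearest library was above Dixon's 95% critical value for 4 samples, which chance exceeds in about 1 in 20 groups, and 7 pairs of gene and group were looked at. For Serping1 the ratio is fixed by the 3 ties at 0 whatever the remaining value, so it is given as a value only. Both levels are below the minimum mean TPM of 1.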

How the results depend on the processing

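The number of members called moved with single libraries in 5 comparisons. With 1 library left out it ran from 0 to 5 for APP against WT at 12 months, from 0 to 1 for APP from 3 to 6 months, from 0 to 5 for APP from 6 to 12 months and from 0 to 3 for the genotype by age interaction. It ran from 4 to 5 for APP from 3 to 12 months. At 12 months 3 members were called with a pseudocount of 0.1. From 3 to 6 months the count was 0 without the filter, with array weights, with only the compared groups and with only the libraries that held Xist. From 6 to 12 months it was 0 with the last 2 of these settings. Both leave fewer samples in the fit, and their scaling and filter were set anew. The cause was not tested for any of these changes in the count. At 6 months 6 members were called on TPM as deposited, where the median of all genes moved by 0.60. Samples with the same replicate number did not deviate together (median correlation -0.007 in mouse and 0.015 in HT-22), and with the replicate number as a block 5 members were called at 12 months, 5 from 3 to 12, 1 from 3 to 6, 4 from 6 to 12 months and 0 elsewhere. Among single genes 1467 results kept their side of the threshold, 67 lost a call, 14 gained one and 0 reversed a called direction. The difference of C4b per C1q between genotypes, as a mean over the ages, was a log2 of 0.31, and 0.22 to 0.40 with 1 library left out. This mean hides unlike ages, at -0.225 for 3 months, 0.86 for 6 months and 0.29 for 12 months. The genotypes overlapped at 3 and 12 months, and at 6 and 12 months genotype cannot be told apart from sex. Depth limits C3 and C5ar1 most, with a mean read depth of at most 2.45 and 1.495 in mouse.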
